A study of Homo sapiens with 15 samples.

Results

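The claudin, tight junction and desmosome genes were taken by symbol: the numbered CLDN, DSG and DSC genes, PKP1 to PKP4, TJP1 and TJP3, and DSP, JUP, PERP, OCLN, MARVELD2, MARVELD3, CGN and F11R. Probe sets assigned to a single gene covered 42 such symbols, out of 18132 genes measured, and F11R, CLDN24 and CLDN34 were not analysed here. The 42 members were 22 claudins, 6 tight junction scaffold and MARVEL domain genes, 7 desmosomal cadherins, and 7 genes of the desmosomal plaque counted together with PERP.

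Gene expression had been measured in 15 established non-small-cell lung cancer (NSCLC) lines, untreated and unirradiated, with 1 Affymetrix PrimeView array per line. The radioresistant lines were HC827, H3122, H2228, H1975, H1650, A549, H460 and H358 (n = 8), and the radiosensitive lines were H520, H226, Calu1, Calu3, H2009, H1781 and H1437 (n = 7), classed on SF2, the fraction of cells that form colonies after a test dose of radiation, in the study's own table, where the value of H520 was taken from the literature. By the study's account Calu1, H226 and H520 are squamous (n = 3), H1437 and H358 bronchioloalveolar (n = 2), H460 large cell (n = 1) and the other 9 adenocarcinoma. The sample labels name the lines and not these classes. Each line is a model of 1 tumour, its array is its only measurement, and a p-value therefore measures the spread between lines.

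Tight junctions close the space between epithelial cells near their apical edge. Claudins form the strands and set which ions and water pass, occludin and tricellulin (the MARVEL domain proteins) shape the strands and the corners where cells meet, and the ZO proteins and cingulin tie them to actin. Desmosomes lie below and resist pulling: desmogleins and desmocollins bridge the cells, plakoglobin and the plakophilins form the plaque, and desmoplakin links the plaque to keratin filaments. In normal lung both structures are found in airway and alveolar epithelium, and they are reduced in cells that pass to a mesenchymal state.

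All values are log2 signals after RMA, a normalization that makes the arrays equal in distribution, from the brightest probe set of a gene. A signal is compared between lines and not between genes, because probe sets differ in affinity. Lower quartiles of the arrays spanned 4.16 to 4.34 and medians 5.88 to 5.93, and a member under the lower quartile of an array is called near background there. In a culture, fewer cells with a transcript and less transcript per cell cannot be told apart. KRT8, KRT18 and KRT19, keratins of simple epithelia, were above the array median in every line, whereas the epithelial cadherin CDH1 and EPCAM were each near background in 2 lines. Of 6 markers of other cell types, the leukocyte gene PTPRC and the fibroblast gene DCN were near background in all 15 lines, CD3E and PDGFRB were between the lower quartile and the median of every array, and the endothelial gene PECAM1 was above the median in every line, 6.15 being its lowest value. The monocyte gene CD14 read 9.64 in H1437 and 6.12 in A549 and was below the array median elsewhere, and the part of these genes in the results was not tested. Of the squamous markers, KRT5 read 8.66 in H226, 6.12 in H520 and 5.63 in Calu1, against 5.37 to 5.76 in the lines of other histology. KRT14 was lowest of all lines in H226 (5.34) and highest in Calu1 (6.53), with 5.87 in H520, and SOX2 read 13.07 in H520 but 4.35 in H226 and 4.47 in Calu1, with 11.78 in the adenocarcinoma line H1781. TP63 and KRT6A were not analysed here. NKX2-1, the lung lineage factor, read 8.95 in the squamous line Calu1 and 3.84 to 4.31 in the adenocarcinoma lines A549, Calu3 and H1650, so these markers did not separate the histologies line by line.

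The members varied widely between lines. The difference between the highest and the lowest line was over 2 log2 units in 25 of 42 members (59.5%), beside 39.4% of all measured genes, and its median was 2.61, beside 1.644 over all genes. CLDN5, a claudin of endothelium, CLDN20, DSC1 and DSG4, a desmoglein of the hair follicle, were near background in every line. On the brightest probe set CLDN4, CLDN12, CLDN15, CLDN19, DSG2, JUP, PERP, PKP4 and TJP1 were above the array median in every line. That is 21.4% of the members beside 42.6% of all genes. CLDN19 varied little there, from 6.53 to 7.13, and its other probe sets had means of 6.46, 4.39 and 4.22. CLDN4 also depended on the probe set, as described below.

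**Figure D1:**
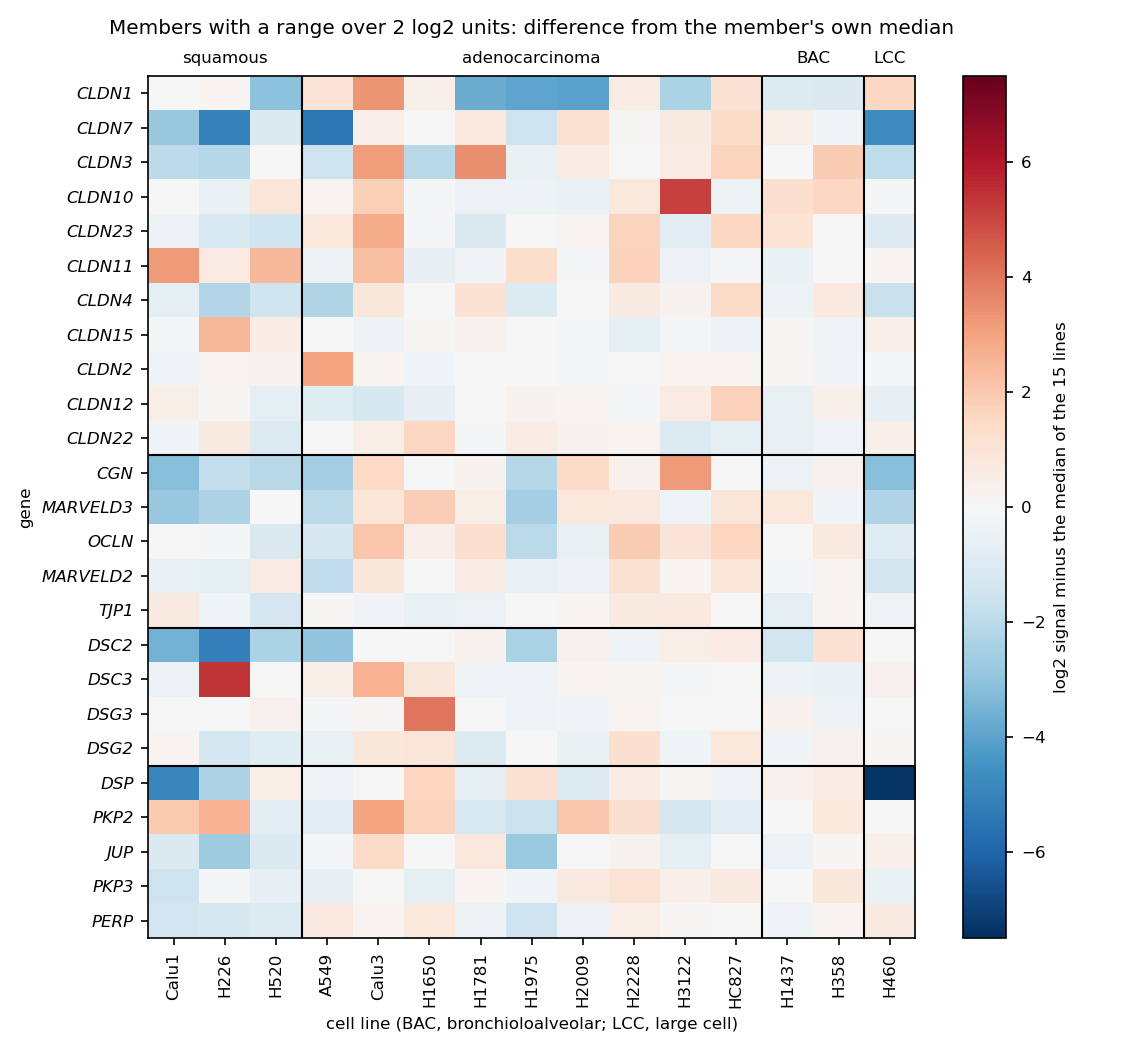
Difference of each line (columns, by histology) from the median of the 15 lines in log2 units, for the 25 members with a range over 2 (rows, by group). Farthest below its median is DSP in H460 (3.34, median 10.71), and farthest above are DSC3 in H226 (8.87, median 3.53) and CLDN10 in H3122 (9.65, median 4.56).

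Among the claudins, CLDN1, a barrier claudin of many epithelia, had the widest range. It read 5.34 in H2009, the lowest line, 9.36 at the median and 12.64 in Calu3, the highest. H1975 (5.42), H1781 (5.65) and H520 (6.26) were also low, and these 4 low lines include a squamous line and both radiation classes. CLDN7, a claudin of most simple epithelia, read 4.43 in A549, 4.78 in H226 and 5.13 in H460, 9.84 at the median and 11.23 in HC827. Its low lines belong to 3 different histologies. CLDN3, which seals many glandular epithelia, read 5.08 in H226, 7.19 at the median and 10.67 in H1781, with Calu3 next at 10.35. Nearly as low as H226 were the adenocarcinoma line H1650 (5.09), Calu1 (5.24) and H460 (5.26).

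CLDN4, the partner of CLDN3 in many epithelia, showed how far a level can depend on the probe set. Its brightest probe set ran from 7.18 in A549 to 10.89 in HC827, a range of 3.71. A less bright one ran from 3.16 in H226 to 11.23 in HC827, with 3.32 in A549 and 3.44 in H520, a range of 8.07. Both put A549, H226, H460 and H520 at the bottom and the correlation between them was 0.95 over the 15 lines, but on the brightest set CLDN4 was above the array median in every line and on the other it was near background in A549, H226 and H520. The remaining probe set of CLDN4 read 4.25 in H226, 4.66 in H520, 5.06 in A549 and 5.49 in H460. Its range over the 15 lines was 6.71. In these low lines CLDN4 was thus below the array median on each of the less bright sets, and above it only on the brightest. Which of the probe sets is nearest to the transcript level was not tested.

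**Figure D2:**
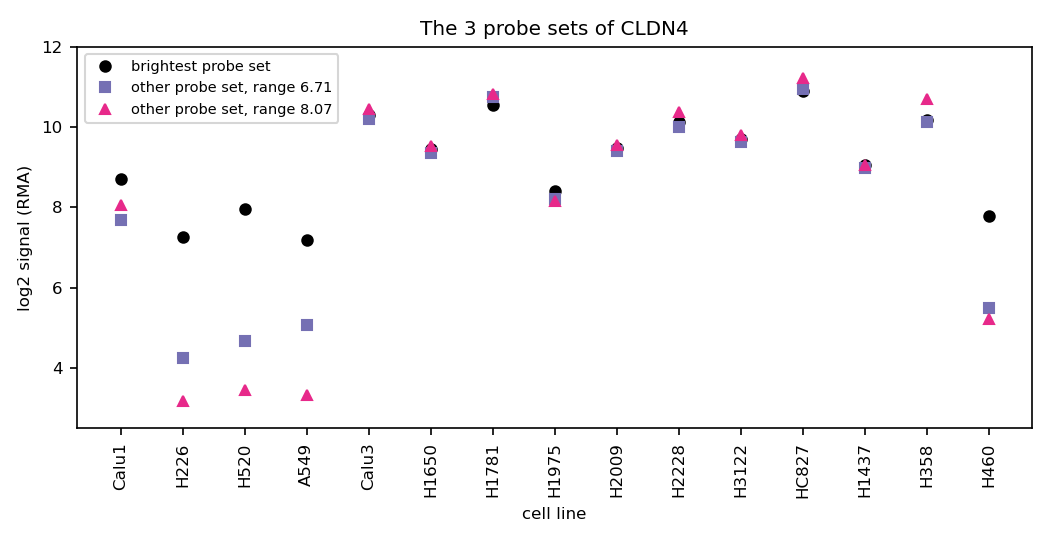
Log2 signal of the 3 probe sets of CLDN4 in each line, ordered by histology. The probe sets lie together in the lines with high signal and part in H226, H520, A549 and H460, where the brightest set stays at 7.26 or above in H226, H520 and H460 and at 7.18 in A549.

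Several claudins were carried by a single line or a few lines. CLDN2, which forms a channel for cations and water in leaky epithelia, read 7.18 in A549 and at most 4.54 in the other 14 lines, and its second probe set read 7.22 in A549. CLDN10, another channel-forming claudin, read 9.65 in H3122, with Calu3 next at 6.34 and a median of 4.56. On its second probe set H3122 read 9.73, but H1437 was high too at 8.18, followed by H520 at 6.37. CLDN15, a cation channel of the gut, read 9.92 in H226 and between 6.74 and 7.95 elsewhere. CLDN11, known from myelin and the testis barrier, was highest in Calu1 (6.95), H520 (6.18) and Calu3 (6.00), and near background in 9 lines. CLDN18, whose lung isoform marks alveolar epithelium, was below the array median in every line. Except for CLDN15, these claudins were below the array median in most lines.

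Of the tight junction scaffolds, CGN (cingulin), which binds ZO proteins and actomyosin, read 4.81 in Calu1 and 4.85 in H460, 8.02 at the median and 11.23 in H3122. MARVELD3 read 3.94 in Calu1, 4.28 in H1975, 6.80 at the median and 8.65 in H1650. OCLN (occludin) read 5.05 in H1975, 7.10 at the median and 9.19 in Calu3. MARVELD2 (tricellulin) was lowest in A549 at 5.69 and highest in H2228 at 8.65. The lowest lines of these 4 genes came from A549, Calu1 and H1975, lines of both radiation classes. TJP1, which encodes ZO-1, was above the array median in every line, with 10.02 in H520 as its lowest and 12.03 in H3122 as its highest value. TJP3 (ZO-3) was below the array median in every line, with 4.17 in H460 and 5.64 in H3122 at its ends.

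The desmosomal cadherins included a pair present in most lines and a pair seen in few. DSC2, the desmocollin of simple epithelia, read 4.97 in H226, 6.54 in Calu1 and 7.14 in A549, 10.10 at the median and 11.19 in H358. DSG2, its desmoglein counterpart, varied less, from 9.64 in H226 to 12.12 in H2228. DSC3, a desmocollin of stratified epithelium, read 8.87 in H226 and 6.12 in Calu3 and at most 4.35 in the other 13 lines. DSG3, the desmoglein of stratified epithelium and the pemphigus antigen, read 8.35 in H1650 and at most 4.65 elsewhere. H226, a squamous line, thus had the highest DSC3 and the lowest DSC2 and DSG2, and H1650, an adenocarcinoma line, was alone in DSG3. Further probe sets gave the same line at the top for both: 7.49 and 7.18 for DSC3 in H226, and 8.09 for DSG3 in H1650.

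The plaque held the widest member of all. DSP (desmoplakin), the link to keratin, read 3.34 in H460, near background, 5.82 in Calu1 and 8.38 in H226, against a median of 10.71 and a highest value of 12.33 in H1650. Its second probe set placed H460 and Calu1 lowest too, at 3.74 and 5.23. H460 was not among the low lines of 3 other desmosome genes: DSC2 read 10.10, JUP 10.50 and PERP 11.50 in that line. PKP2, a plakophilin of simple epithelia and heart, read 4.79 in H1975, 6.39 at the median and 9.34 in Calu3, with H226 (9.03) and Calu1 (8.38) among the high lines. JUP (plakoglobin), shared by desmosomes and adherens junctions, read 7.34 in H1975, 10.10 at the median and 11.52 in Calu3. PERP, a membrane protein of desmosomes and a target of p53 and p63, ran from 9.27 in H1975 to 11.60 in H1650. PKP1, the plakophilin of stratified epithelium, stayed between 4.95 and 5.60.

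**Figure D3:**
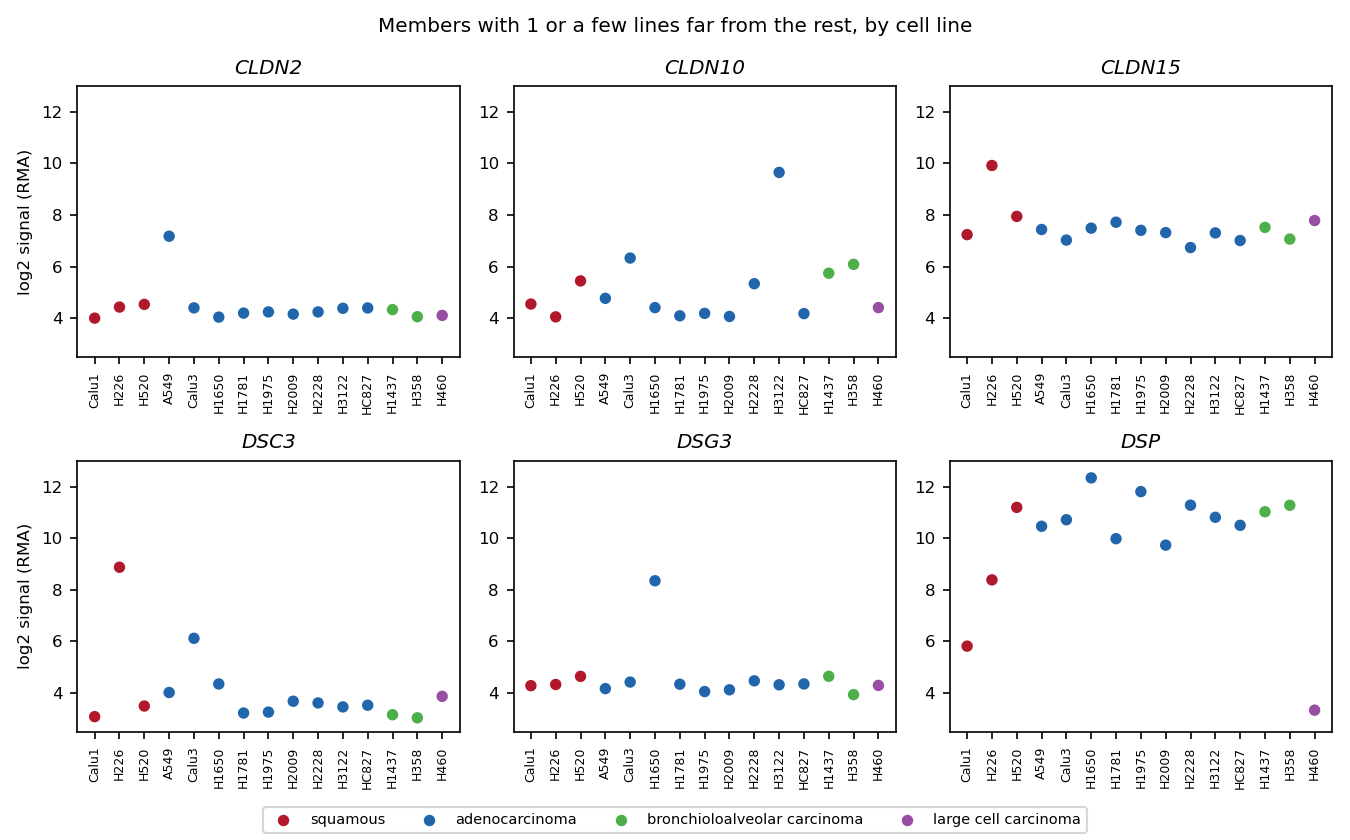
Log2 signal by line, coloured by histology, for 6 members in which 1 or a few lines lie far from the rest. CLDN2 stands out in A549, CLDN10 in H3122, CLDN15 and DSC3 in H226 and DSG3 in H1650, and DSP is lowest in H460.

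Line by line, Calu3 held the highest value of 8 members and H1650 of 6, while H226 and H1975 each held the lowest value of 7. These counts include members that varied little. Among the 25 wide members, Calu3 and H1650 each held 5 highest values. H226, H1975 and Calu1 each held 4 lowest values. Taken over the 25 members with a wide range, the median difference from the member's own median was 0.84 in Calu3 and 0.56 in H2228, and -0.82 in H520 and -0.50 in H226. Both lines at the top are adenocarcinoma and both at the bottom squamous, but the adenocarcinoma lines A549 (-0.37) and H1975 (-0.36) lay beside the squamous line Calu1 (-0.36).

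Some members followed each other across the lines. By Pearson's r the pair with the closest pattern among the 25 was CLDN4 and CLDN7 (Pearson's r = 0.88, Spearman's rho = 0.84, n = 15 lines), followed by CLDN7 with MARVELD3 (r = 0.82, rho = 0.71) and CLDN4 with OCLN (r = 0.81, rho = 0.86), which by Spearman's rho was closer than CLDN4 with CLDN7. These values describe 15 arrays on which all members were read together, and they carry no test. CLDN1 did not follow CLDN7 (r = -0.30) or CLDN4 (r = -0.01). The 5 lines lowest in DSC2, which were H226, Calu1, A549, H1975 and H520, had ZEB1, a repressor of epithelial genes that binds E-boxes, at 8.52, 8.78, 7.93, 8.19 and 7.94. H460 came next for ZEB1 at 6.84, with DSC2 at 10.10 and CLDN7 at 5.13, and in the other 9 lines ZEB1 lay between 3.48 and 5.82.

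Because ZEB1 reads the letters CACCTG, RefSeq promoter windows (GRCh38.p14) of the members were searched for that motif on either strand (as CACCTG or CAGGTG, which cannot overlap each other) in the 250 bases before each start. Windows were at hand for 33 of the 42 members, 49 windows in all. The motif was in 13 of the 49 windows (26.5%), in 12 genes, beside 17.5% of 35116 windows of all genes, and 4 member windows held 2 or more (2.53% of all windows). A match describes letters and not a bound site. The windows of DSP, the widest member, DSC2, whose 5 lowest lines were named above, and OCLN are shown for their matches, and that of CLDN4, which followed OCLN across the lines, for having none. DSC2 and OCLN each have a further window that is not shown, with no match in DSC2 and 1 match in OCLN. Capitals mark the motif, and each sequence runs 5′ to 3′ on the strand of the gene.
DSP, chr6:7541421-7541670, plus strand, 2 matches: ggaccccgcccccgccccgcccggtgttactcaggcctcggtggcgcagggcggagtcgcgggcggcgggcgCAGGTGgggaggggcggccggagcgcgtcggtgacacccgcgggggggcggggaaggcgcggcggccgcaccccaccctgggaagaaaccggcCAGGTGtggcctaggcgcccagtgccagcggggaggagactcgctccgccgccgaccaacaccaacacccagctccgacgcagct
DSC2, chr18:31102422-31102671, minus strand, 1 match: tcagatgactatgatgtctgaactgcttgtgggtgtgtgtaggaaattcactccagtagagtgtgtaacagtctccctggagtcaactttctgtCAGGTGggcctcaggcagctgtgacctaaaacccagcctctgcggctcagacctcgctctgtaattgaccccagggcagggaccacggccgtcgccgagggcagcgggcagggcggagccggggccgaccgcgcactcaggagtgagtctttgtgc
OCLN, chr5:69492297-69492546, plus strand, 1 match: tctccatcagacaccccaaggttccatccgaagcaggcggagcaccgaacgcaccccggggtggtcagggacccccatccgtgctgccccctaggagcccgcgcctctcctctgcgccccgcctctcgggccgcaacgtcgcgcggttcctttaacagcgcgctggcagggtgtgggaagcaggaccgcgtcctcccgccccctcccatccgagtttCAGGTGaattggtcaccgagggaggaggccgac
CLDN4, chr7:73830746-73830995, plus strand, no match: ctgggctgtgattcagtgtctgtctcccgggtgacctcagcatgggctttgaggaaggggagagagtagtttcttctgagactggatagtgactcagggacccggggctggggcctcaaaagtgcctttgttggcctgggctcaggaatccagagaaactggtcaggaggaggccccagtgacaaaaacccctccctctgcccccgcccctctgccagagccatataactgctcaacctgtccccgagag

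CLDN7 held the most matches of any member, 4 in the window of 1 of its 2 starts and none in the other, at positions -174, -135, -20 and -9 counted from that start. The 3 stretches of 30 bases that hold them are shown for that reason, from the minus strand, with the motif in capitals. The window with these matches, chr17:7262479-7262728, lies downstream of the other start of CLDN7, whose window is chr17:7263214-7263463.
CLDN7, chr17:7262627-7262656, position -174: tcctCACCTGggcaaggaggggtgggggcc
CLDN7, chr17:7262594-7262623, position -135: acttccggttCAGGTGagtgtcccttcggt
CLDN7, chr17:7262479-7262508, positions -20 and -9: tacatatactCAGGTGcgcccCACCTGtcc

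The comparison of histologies asked whether the squamous lines differ from the adenocarcinoma lines in these junction genes. The limit used here was a log2 difference beyond 1 in either direction together with an unadjusted p below 0.05. By limma 8 of 42 members were lower in the squamous lines (19.0%, beside 2.26% of all 18132 genes) at that limit and 2 were higher (4.76%, beside 1.55%). After Benjamini-Hochberg adjustment over all genes none of the members passed 0.05, nor did any gene (0.0%). The lowest adjusted p of a member was 0.247, for DSC2, and 13 members had an unadjusted p under 0.05, beside 8.83% of all genes. With each gene's own variance in place of limma's moderated one, 4 lower and 2 higher members were past the limit. Of all 18132 genes, 342 were lower and 220 higher in that setting. None of the members passed 0.05 after adjustment there. Over all 42 members the median difference was -0.30, beside 0.01 over all genes. The 8 lower members held 3 claudins, cingulin, a desmocollin and 3 of the 7 plaque genes.

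DSC2 showed the largest difference. It read 6.54 in Calu1, 4.97 in H226 and 7.74 in H520, against 7.14 in A549, a median of 10.14 and 10.71 in HC827 among the adenocarcinoma lines. All adenocarcinoma lines but A549 and H1975 lay above all 3 squamous lines. The difference was -3.26 (SE 0.86, adjusted p = 0.247 by limma; two-sided exact permutation p = 0.0136 over 220 splits, the smallest possible being 0.00455), and it stayed past the limit whichever line was left out. With the mean of all probe sets of DSC2 the difference was -2.69.

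PERP read 9.42, 9.61 and 9.83 in Calu1, H226 and H520, against 9.27 in H1975, a median of 10.94 and 11.60 in H1650 in adenocarcinoma. H1975 lay below all 3 squamous lines, and the other adenocarcinoma lines lay above them. The difference was -1.20 (SE 0.40, adjusted p = 0.395; exact permutation p = 0.0227). CGN read 4.81, 6.23 and 5.94 in Calu1, H226 and H520, against 5.47 in A549, a median of 8.25 and 11.23 in H3122 in adenocarcinoma. Apart from A549 and H1975, every adenocarcinoma line was above the squamous lines, with a difference of -2.59 (SE 0.98, adjusted p = 0.45; exact permutation p = 0.0682). Without Calu1 the difference in CGN was -2.16 and no longer past the limit.

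DSP read 5.82 in Calu1 and 8.38 in H226 but 11.19 in H520, against 9.73 in H2009, a median of 10.71 and 12.33 in H1650 in adenocarcinoma. H520 lay above 6 of the 9 adenocarcinoma lines. The difference was -2.38 (SE 0.85, adjusted p = 0.424; exact permutation p = 0.0318). It was -1.06 and not past the limit without Calu1, and -3.74 without H520. Against all other lines, H460 among them, it was -1.80 and not past the limit. JUP read 8.999, 7.45 and 9.02 in Calu1, H226 and H520, against 7.34 in H1975, a median of 10.13 and 11.52 in Calu3 in adenocarcinoma. H1975 was the lowest of these 12 lines. Its difference was -1.50 (SE 0.67, adjusted p = 0.549; exact permutation p = 0.0682), and it was past the limit in 4 of the 15 fits that left out 1 line. Without H226 it was -0.98.

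CLDN7 read 7.003, 4.78 and 8.78 in Calu1, H226 and H520, against 4.43 in A549, a median of 10.20 and 11.23 in HC827 in adenocarcinoma. The lowest of these 12 lines was thus an adenocarcinoma line. The difference was -2.70 (SE 1.24, adjusted p = 0.564; exact permutation p = 0.0727), and -1.66 without H226. CLDN7 too was past the limit in 4 of the 15 fits that left out 1 line.

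On its brightest probe set CLDN4 read 8.71, 7.26 and 7.97 in Calu1, H226 and H520, against 7.18 in A549, a median of 9.72 and 10.89 in HC827 in adenocarcinoma. The difference was -1.59 (SE 0.66, adjusted p = 0.521; exact permutation p = 0.0591). It was -1.23 without H226 and -1.58 without H520, neither past the limit, and -4.36 (SE 1.49) on the widest probe set, a setting chosen after seeing the data. CLDN23, a less studied claudin, read 5.54, 4.76 and 4.38 in Calu1, H226 and H520, against 4.80 in H1781, a median of 6.09 and 8.70 in Calu3 in adenocarcinoma. H1781 and H3122 (5.04) lay among the squamous values. The difference in CLDN23 was -1.56 (SE 0.71, adjusted p = 0.559; exact permutation p = 0.0773), and leaving out any of 8 lines put it outside the limit.

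The 2 members higher in the squamous lines depended on single lines. CLDN15 read 7.24, 9.92 and 7.95 in Calu1, H226 and H520, against 6.74 in H2228, a median of 7.32 and 7.72 in H1781 in adenocarcinoma. H226 stood apart and Calu1 lay inside the adenocarcinoma range. The difference was 1.09 (SE 0.41, adjusted p = 0.445; exact permutation p = 0.0364), 0.32 without H226 and 1.66 without Calu1. CLDN11 read 6.95, 4.34 and 6.18 in Calu1, H226 and H520, against 3.13 in H1650, a median of 3.61 and 6.00 in Calu3 in adenocarcinoma. Only Calu1 and H520 were above all adenocarcinoma lines. The difference was 1.71 (SE 0.68, adjusted p = 0.493; exact permutation p = 0.0318), and it was not past the limit without Calu1 (1.15) or without H520 (1.53). The other probe sets of CLDN11 were near background, and the mean over all of its probe sets differed by 0.61.

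**Figure D4:**
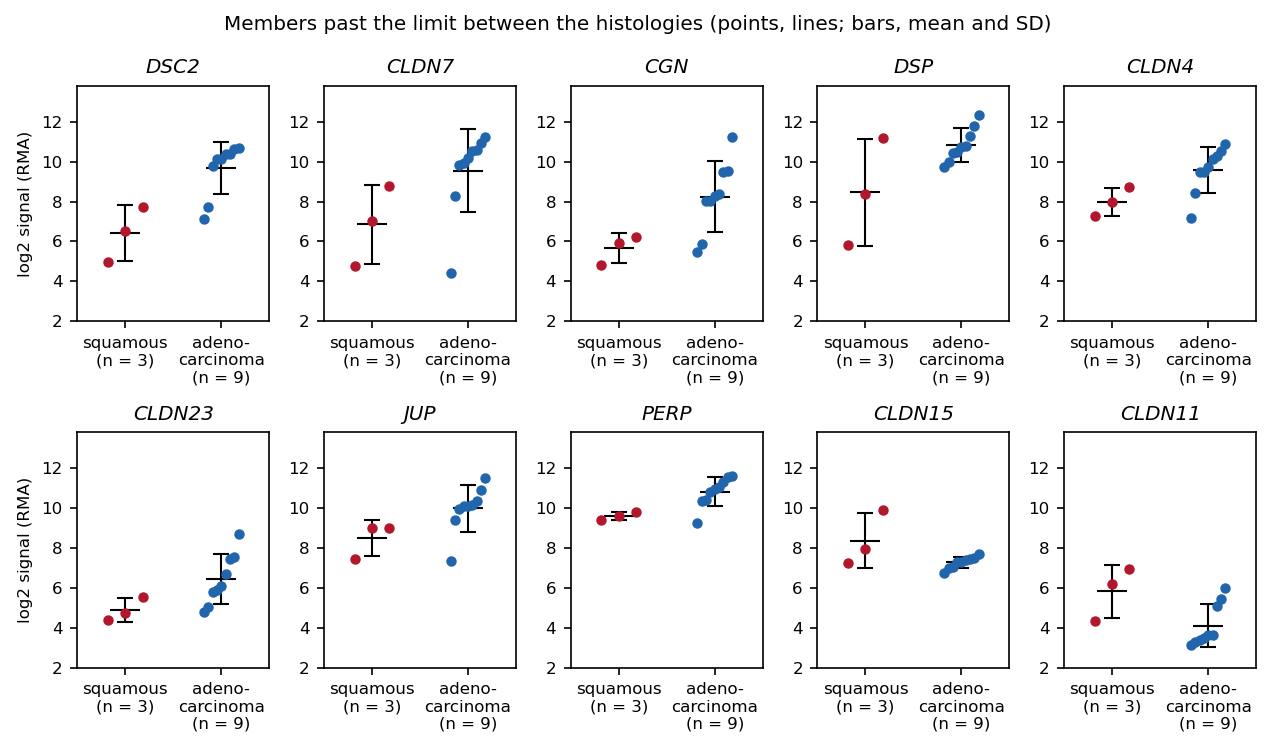
Log2 signal in the 3 squamous and the 9 adenocarcinoma lines for the 10 members past the limit, ordered by difference, with mean and SD. The 2 groups overlap in every panel, and in DSP the squamous line H520 lies above 6 of the 9 adenocarcinoma lines.

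The remaining wide members did not pass the limit. MARVELD3 read 3.94, 4.47 and 6.80 in Calu1, H226 and H520, against 4.28 in H1975, a median of 7.56 and 8.65 in H1650 in adenocarcinoma. The difference was -1.81 (SE 0.89, adjusted p = 0.586; exact permutation p = 0.0909), and it was past the limit without H520 (-2.68), H1975 (-2.14) or A549 (-2.08). In the settings other than leaving a single line out, it was past the limit in 4 and not in 8. Those past it included the mean of all probe sets (-1.98) and array weights (-2.52). CLDN1 was 8.37 ± 1.82 in squamous and 8.495 ± 2.69 in adenocarcinoma lines (SD, n = 3 and 9), and its sign depended on the line left out. DSC3, high in H226 alone among the squamous lines, changed sign without it, to -0.63. PKP2 was 7.66 ± 1.84 in squamous and 6.64 ± 1.70 in adenocarcinoma lines (SD).

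Most genes of the lists around these structures were not past the limit, which 2.26% of all genes passed as lower and 1.55% as higher. Of 25 other tight junction genes, 2 were lower past it and 0 higher. LSR, which recruits tricellulin, read 5.57 in Calu1, 9.16 in H226 and 10.24 in H520, and its difference of -1.83 (SE 0.83) was -0.46 without Calu1. EPCAM, which binds CLDN7, read 7.58 in Calu1, 4.03 in H226 and 13.05 in H520, and its difference of -3.71 (SE 1.43) was -1.62 without H226 and -6.13 without H520. Of 18 other desmosome and adherens junction genes, 3 were lower and 2 higher. CDH1 (E-cadherin, -6.39, SE 1.03) and CDH3 (-4.56, SE 1.39) were lower and CDH2 (N-cadherin, 4.86, SE 0.64) was higher, each past the limit whichever line was left out. NECTIN4 (-3.21, SE 1.24) was past it only with all 3 squamous lines, and KRT5 (1.23, SE 0.44) was 0.30 without H226. Of 16 regulators of epithelial state, 4 that favour epithelial genes were lower and 2 repressors of such genes were higher. ELF3 (-3.78, SE 0.79), GRHL2 (-2.23, SE 0.66), ZEB1 (3.18, SE 0.94) and TWIST2 (2.39, SE 0.67) were past the limit whichever line was left out, and GRHL1 and OVOL2 in 10 of the 15 such fits. None of these passed 0.05 after adjustment over all genes, the lowest value being 0.0851 for CDH2 and 0.0929 for CDH1. All 4 mesenchymal markers (VIM, ZEB1, CDH2 and FN1) had a higher mean in the squamous lines, 2 of them past the limit, and their part in the junction differences was not tested. With radiation class as the design, H520 had the lowest array weight, 0.43 against 0.80 to 1.40 for the other arrays. The weights of the histology fit are not given here. H1781 and H3122 had 3′ minus 5′ actin signals of 2.09 and 1.90, above the 0.63 to 1.30 of the rest. Without both, 1 member was higher and 6 were lower past the limit, beside 242 and 409 of all genes.

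All 3 squamous lines are radiosensitive, so that among all lines histology is bound up with class. Within the radiosensitive lines, 7 members were lower past the limit (beside 2.52% of all genes) and 0 higher (beside 0.899%): DSC2 (-3.90, SE 0.70), CLDN4 (-2.13, SE 0.47), CGN, CLDN7, JUP, MARVELD3 and CLDN3. Those fits set 3 squamous against 3 adenocarcinoma lines, Calu3, H1781 and H2009. They leave out A549 and H1975, which did not lie above all squamous lines in DSC2, CGN or CLDN7. Not past the limit there were DSP (-1.68), CLDN23 (-1.64), PERP (-0.99), CLDN11 (1.45) and CLDN15 (1.01).

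A further comparison asked what distinguishes radioresistant from radiosensitive lines. At the same limit 0 of 42 members were higher (beside 0.331% of all genes) and 0 lower (beside 0.215%), and after adjustment none of the members and no gene passed 0.05 (0.0%; limma, lowest adjusted p 0.998). PERP was the 1 member with an unadjusted p under 0.05, beside 3.18% of all genes. With each gene's own variance there were 2, both higher, beside 247 of all genes higher and 349 lower. Of the members 21 were higher and 21 lower, with a median difference of 0.02, beside -0.01 over all genes.

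PERP read 9.27 in H1975, 11.19 at the median and 11.60 in H1650 among the radioresistant lines, against 9.42 in Calu1, 10.37 at the median and 11.04 in Calu3 among the radiosensitive lines. The other radioresistant lines than H1975 were at 10.83 or above, and H1975 itself lay below every radiosensitive line. The difference was 0.84 (SE 0.34, 95% interval 0.12 to 1.56, adjusted p = 0.998; exact permutation p = 0.0371 over 6435 splits). It was 1.09 and past the limit without H1975, 0.42 with squamous histology as a covariate and 0.32 among adenocarcinoma lines alone. PERP was also among the members low in squamous lines, which are all radiosensitive.

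DSG2 read 10.33 in A549, 11.10 at the median and 12.12 in H2228 among the radioresistant lines, against 9.64 in H226, 10.43 at the median and 11.76 in Calu3 among the radiosensitive lines. The groups overlapped, although 3 radiosensitive lines lay below every radioresistant one, and the difference was 0.70 (SE 0.34, 95% interval -0.02 to 1.43, adjusted p = 0.998; exact permutation p = 0.0721).

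Of the widest members, DSC2 was 9.68 ± 1.46 in radioresistant and 8.41 ± 2.11 in radiosensitive lines (SD, n = 8 and 7), a difference of 1.26 (SE 0.88; exact permutation p = 0.196) that was -0.23 without the squamous lines. DSP was 10.22 ± 2.85 in radioresistant and 9.55 ± 1.90 in radiosensitive lines, a difference of 0.68 (SE 1.20; exact permutation p = 0.605). Without H460, a radioresistant line near background for DSP, it was 1.66 and past the limit, and without the squamous lines it was -0.14. CLDN1 ran between 5.42 and 10.89 in radioresistant and between 5.34 and 12.64 in radiosensitive lines, with a difference of 0.85 (SE 1.12; exact permutation p = 0.481). CLDN7 ran between 4.43 and 11.23 in radioresistant and between 4.78 and 10.96 in radiosensitive lines, with a difference of -0.31 (SE 1.18; exact permutation p = 0.80). Both claudins thus spanned most of their range within each class. The differences were 0.12 for CGN (SE 0.96), -0.16 for MARVELD3 (SE 0.79) and -0.88 for DSC3 (SE 0.75), which was high in the radiosensitive line H226.

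PKP2 ran the other way from PERP. It read 4.79 in H1975, 5.99 at the median and 8.08 in H1650 among the radioresistant lines, against 5.23 in H1781, 8.38 at the median and 9.34 in Calu3 among the radiosensitive lines. In 4 radiosensitive lines, Calu3, H226, H2009 and Calu1, it lay above every radioresistant line. The difference was -1.18 (SE 0.71, 95% interval -2.71 to 0.34, adjusted p = 0.998; exact permutation p = 0.138). Without H1781 it was -1.56 and past the limit.

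**Figure D5:**
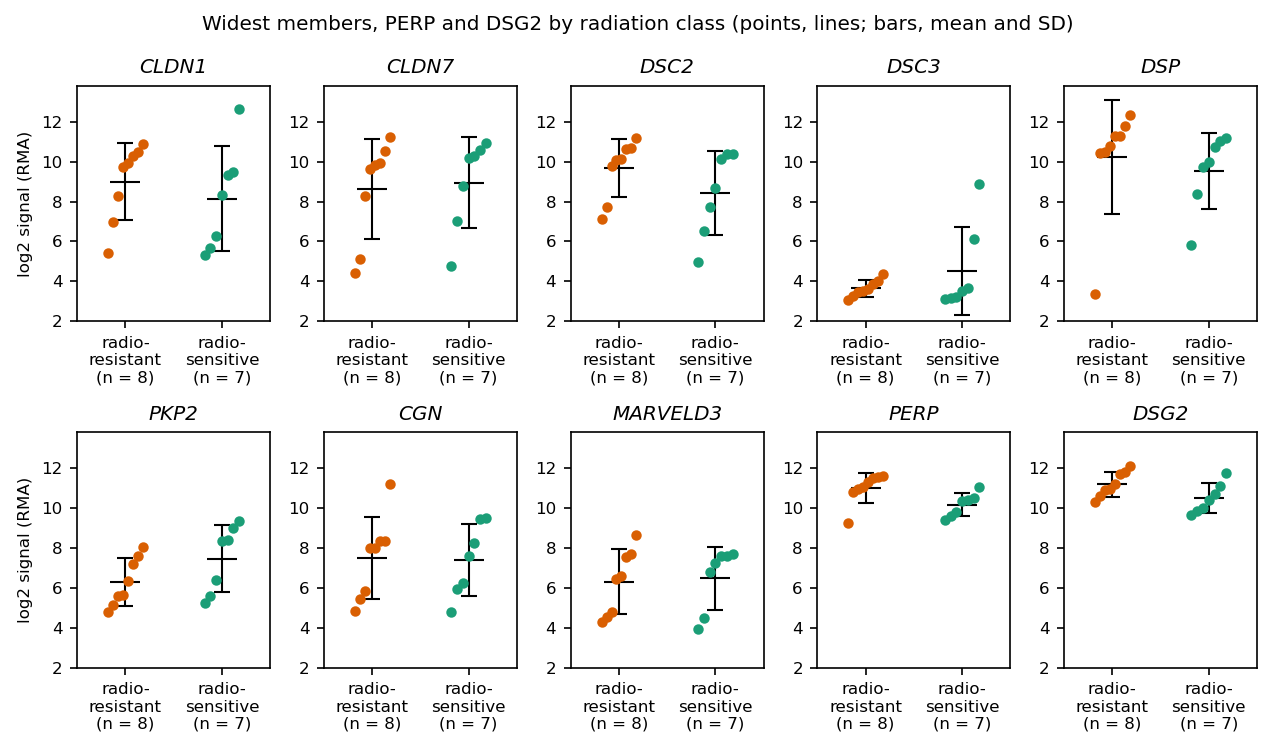
Log2 signal in the 8 radioresistant and the 7 radiosensitive lines for the 8 widest members of their groups and for PERP and DSG2, with mean and SD. The classes overlap in every panel; PERP is lowest in the radioresistant line H1975 and DSP in H460.

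On SF2 itself, with the slope scaled to the difference between the class means, 0 of 42 members passed the limit in either direction (beside 0.237% of all genes rising with SF2 and 0.331% falling), and none passed 0.05 after adjustment (0.0%; limma, lowest adjusted p 0.998, 0 members with an unadjusted p under 0.05, beside 4.56% of all genes). The slopes use the same lines as the classes. PKP2 had a slope of -1.16 (SE 0.58) and TJP3 of -0.36 (SE 0.17). Without H1781 the slope of PKP2 was -1.98 and past the limit. Among adenocarcinoma lines alone CLDN3 (-1.56, SE 0.66) and DSC2 (-1.05, SE 0.45) were past the limit, beside 1.11% of all genes. By class the same lines were 6 radioresistant and 3 radiosensitive. CLDN3 was lower (-2.71, SE 0.94) and DSP higher (1.06, SE 0.45) in the radioresistant ones, beside 1.24% of all genes. CLDN3 read 10.35 in Calu3 and 10.67 in H1781, but the radiosensitive line H2009 (7.74) lay below H3122 (7.81) and HC827 (8.87). In DSP the radiosensitive line Calu3 (10.71) lay above A549 (10.46) and HC827 (10.50). Among the surrounding genes CDH2 was lower in the radioresistant class (-2.43, SE 0.93). It was highest in the squamous lines, with 11.97 in H226, 11.26 in H520 and Calu1 next after them, and without them the difference was -0.48 and not past the limit. PRSS8 (-1.08, SE 0.34), a membrane protease of epithelia, and PPL (-1.45, SE 0.58), the plaque protein periplakin, had negative slopes past the limit. They were 1 of 25 tight junction and 1 of 18 desmosome and adherens junction genes, beside 0.331% of all genes. PRSS8 was not past the limit without Calu3 or H1781, and PPL was not without A549, H1781 or H2009. The adjusted p of CDH2, PRSS8 and PPL was 0.998 by limma.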

How the data were processed

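RNA of 15 NSCLC lines was read on 1 PrimeView array per line. The deposited log2 values were made by the authors with RMA (affy 1.64.0, per the submitters' processing notes). RMA compresses low signals. Precision is limited by how many arrays there were. The labels give biotin and 1 colour, whereas the methods describe Cy3 or Cy5 with a reference; no ratio was formed. Of 49495 probe sets, 44988 with a single gene, outside the 100 ERCC and 102 AFFX controls, gave 18132 genes by the brightest probe set; the members had 91 probe sets. Tests used limma 3.58.1 (R 4.3.3) over all genes with Benjamini-Hochberg adjustment, checked on simulated data, and exact permutations over lines for single members (Python 3.11.15, scipy 1.17.1). Histology was fitted as 4 groups with 1 shared spread. Full statistics went to members past the limit (unadjusted p below 0.05 and a log2 difference beyond 1) in any comparison and to the 2 widest members of each of 4 groups; DSG2, TJP3 and CLDN3 were given statistics after their values were seen. Motif counts used RefSeq windows. The genome build of the array was not given in the sources used here. The alternatives covered probe sets per gene, array weights, centring, dim genes, moderation (each gene's own variance; the study's own permutation test over all genes was not run), histology and each line left out. The members, the related gene lists and the tests were chosen with earlier results of these data known.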

Additional observations from a re-analysis of the deposited data

Results flagged for a closer look

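In the radioresistant, radiosensitive and adenocarcinoma lines each member was looked at for a highest or lowest line far from its neighbour for the size of its group. Of 126 such groups 20 held one, in 16 pairs of gene and line. The rule is set for about 1 in 20 groups, if values are normally spread and groups independent. These groups share lines, and the rule was not run on the other genes. Whether the count is more than that of other genes was therefore not tested. The low values were DSP in H460 (3.34, next 10.46), CLDN7 in A549 (4.43, next 8.30 among adenocarcinoma lines), JUP in H1975 (7.34, next 9.39), PERP in H1975 (9.27, next 10.83) and CLDN5 in HC827 (3.83, next 3.96). The high values far above background were CLDN10 in H3122 (9.65), CLDN2 in A549 (7.18) and DSG3 in H1650 (8.35), each in both the radioresistant and the adenocarcinoma lines, and CLDN15 in H226 (9.92). DSC3 in Calu3 (6.12, next 4.35) and CLDN16 in Calu3 (6.11, next 5.35) were high among adenocarcinoma lines. Small gaps were found for CLDN6 in HC827 (4.53, next 4.06), CLDN9 in H358 (6.35, next 6.00), CLDN19 in H520 (7.13, next 6.87), CLDN25 in H520 (5.21, next 4.76) and CLDN8 in H1781 (4.37, next 3.55).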

How the results depend on the processing

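No paired analysis was possible because the labels carry no replicate numbers that pair lines. Members at an adjusted p under 0.05 numbered 0 under every setting. For radioresistant minus radiosensitive lines, the members past the limit, 0 here, numbered 2 among adenocarcinoma lines alone, and 1 with squamous histology as a covariate, without H1650 and H520, or with the widest probe set of a gene (chosen after seeing the data), and 0 to 1 when single lines were left out (1 without H1975, H460 or H1781). Genes past the limit, 99 here, numbered 224, 161 and 167 among adenocarcinoma lines alone, with the covariate and without the squamous lines, and 78 to 175 when single lines were left out (175 without H1437 and 159 without H2009). For the slope on SF2, members numbered 2 among adenocarcinoma lines and 1 without the squamous lines, and 0 to 1 when single lines were left out; genes, 103 here, numbered 201, 160 and 173 in the same 3 settings, and 88 to 206 when single lines were left out (206 without H2009). For squamous minus adenocarcinoma lines, members, 10 here, numbered 6 with each gene's own variance and 6 to 11 when single lines were left out (6 without Calu1 or H226); genes at an adjusted p, 0 here, numbered 10 against all other lines, 24 with array weights, 2 with the mean of probe sets, 1 with each gene's own variance, 2 within radiosensitive lines, 4 with the widest probe set, and 0 to 34 when single lines were left out (34 without H520, 17 without Calu1, 15 without H226). The direction turned for DSC2 between radiation classes without the squamous lines or with the covariate (-0.23 in both) and among adenocarcinoma lines (-0.96), and for DSP without the squamous lines or with the covariate (-0.14 in both). It turned for CLDN1 between histologies with array weights (0.43) and within radiosensitive lines (0.49), with -0.69 to 0.92 when single lines were left out, and for DSC3, with -0.63 to 2.27. The cause of these shifts was not tested.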
